A study of Mus musculus with 12 samples.

Results

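A group of 9 mouse genes of quinone, carbonyl and aldehyde metabolism was followed in the liver: *Nqo1*, *Cbr1*, *Cbr3*, *Akr1b3*, *Akr1b7*, *Akr1b8*, *Ephx1*, *Ptgr1* and *Htatip2*. They are 9 of the 24411 genes in the deposited table and were taken from it by their symbols. The 9 genes were selected on values of these same mice, since their rise in *Atg7*-KO livers and the missing counts of *Akr1b3* in one genotype were known when they were chosen. Their levels, fold changes and calls are therefore given as a description. A call of one of the 9 says where its fitted value lies among all genes and is no independent test of it. All 9 passed the filter on low counts that left 13922 genes for the fit.

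Poly(A) RNA of whole liver was sequenced in 3 mice of each of 3 genotypes at 3 months of age, on a C57BL/6 background. All mice carried Atg7flox/flox, and those with no further allele served as controls (cont). In *Atg7*-KO mice (Atg7flox/flox;Alb-Cre), Cre under the albumin promoter removes *Atg7*, a gene needed to form autophagosomes, in hepatocytes. In *Atg7*-KO;p62T352A mice, called knock-in mice below, both copies of the endogenous p62 gene (*Sqstm1*) also carried the T352A exchange, made by prime editing in embryonic stem cells. Atg7flox/flox mice with the T352A exchange alone were not analysed here. The values are expected counts per gene, that is, reads assigned to genes by estimation, and they were scaled for library size and composition to normalized CPM (counts scaled to a common library total) by edgeR's TMM method.

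NRF2, encoded by *Nfe2l2*, is the transcription factor that switches on antioxidant and detoxifying genes through the antioxidant response element (ARE). KEAP1 holds it in check by presenting it to a CUL3 ubiquitin ligase, and p62, which piles up in hepatocytes that lack autophagy, can bind KEAP1 through a short motif in which the exchanged threonine lies. *Nqo1* is the classical readout of NRF2 activity in liver. The other enzymes act on related substrates: quinones, ketones, lipid aldehydes, epoxides and unsaturated carbonyl compounds. The comparison of the 3 genotypes asks how far loss of KEAP1 binding by p62 changes the transcripts that rise when *Atg7* is lost.

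The promoters are shown because the 9 genes moved together between genotypes. RefSeq (GRCm38.p6) gave a window from 250 bases before to 50 bases after the start site for 8 of the 9 genes, with 2 windows for *Htatip2* and none for *Akr1b3*. The windows were searched on both strands for the ARE core, TGACNNNGC, shown in capitals, and sequences are given in the direction of transcription. *Nqo1* and *Cbr3* are printed as the strongest responders, and both *Htatip2* windows because they alone held the core.
Nqo1, chr8:107403156-107403455, minus strand: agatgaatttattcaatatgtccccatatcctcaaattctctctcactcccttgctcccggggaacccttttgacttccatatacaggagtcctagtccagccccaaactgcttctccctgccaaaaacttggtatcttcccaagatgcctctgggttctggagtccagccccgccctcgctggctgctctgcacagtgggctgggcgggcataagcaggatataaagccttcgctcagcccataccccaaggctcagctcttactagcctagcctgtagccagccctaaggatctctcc
Cbr3, chr16:93682969-93683268, plus strand: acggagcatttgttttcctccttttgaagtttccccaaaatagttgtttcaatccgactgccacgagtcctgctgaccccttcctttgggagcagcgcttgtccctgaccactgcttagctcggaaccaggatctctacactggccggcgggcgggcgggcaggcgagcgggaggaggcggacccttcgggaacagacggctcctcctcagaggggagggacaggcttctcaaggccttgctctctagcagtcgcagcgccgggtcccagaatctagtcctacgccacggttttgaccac
Htatip2 window 1, chr7:49758856-49759155, plus strand: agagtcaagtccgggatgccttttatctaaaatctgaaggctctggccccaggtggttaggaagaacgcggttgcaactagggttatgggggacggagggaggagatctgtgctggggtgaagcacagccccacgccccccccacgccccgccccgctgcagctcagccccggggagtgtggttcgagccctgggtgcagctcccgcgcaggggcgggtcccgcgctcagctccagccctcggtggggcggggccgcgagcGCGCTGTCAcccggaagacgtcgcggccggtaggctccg
Htatip2 window 2, chr7:49759262-49759561, plus strand: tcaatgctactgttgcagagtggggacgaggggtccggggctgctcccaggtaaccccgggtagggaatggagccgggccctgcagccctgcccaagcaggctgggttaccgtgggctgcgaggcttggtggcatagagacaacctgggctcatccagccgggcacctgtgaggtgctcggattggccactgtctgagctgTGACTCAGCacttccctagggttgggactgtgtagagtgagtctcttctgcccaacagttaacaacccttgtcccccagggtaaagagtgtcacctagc
In window 1 of *Htatip2* the match, GCGCTGTCA, read on the opposite strand, began 11 bases after the start site. In window 2 it was TGACTCAGC and began at position -49. Of all 32851 RefSeq windows of 300 bases, 12.4% held an ARE core. The windows of *Nqo1*, *Cbr1*, *Cbr3*, *Akr1b7*, *Akr1b8*, *Ephx1* and *Ptgr1* held none, which says only that these letters do not occur in these stretches. The core of the xenobiotic response element, GCGTG, occurred in the windows of *Cbr1*, *Akr1b8* and *Htatip2* and in 32.4% of all windows.

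*Atg7* itself was measured first, as the deleted gene. It stood at 44.2, 46.4 and 55.4 CPM in the cont mice, at 9.57, 10.1 and 12.0 in the *Atg7*-KO mice and at 27.4, 29.5 and 29.7 in the knock-in mice. The 3 genotypes did not overlap, and the mice labelled *Atg7*-KO;p62T352A lay between the others. Their *Atg7* was higher than in *Atg7*-KO mice by 1.45 on the log2 scale (standard error 0.17, edgeR adjusted p = 0.000164). Against cont it was -0.75 (standard error 0.16, edgeR adjusted p = 0.0206), a call that was lost when any 1 of the 3 knock-in mice was left out (adjusted p = 0.0524 to 0.07). A fall of a gene in knock-in against *Atg7*-KO mice was thus measured in livers that also held more *Atg7* transcript, and the part of this in the results was not tested. These values are of RNA. In the study's immunoblots ATG7 protein was almost absent from livers of both genotypes, which its authors read as a block of autophagy.

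Total counts were between 9671073 and 23285134 in cont mice, between 16157275 and 18480541 in *Atg7*-KO mice and between 16133626 and 17357183 in knock-in mice. By the calling rule given below, *Atg7*-KO against cont mice had 21.6% of the 13922 tested genes up and 22.1% down. Knock-in against cont mice had 6.25% up and 5.34% down, and knock-in against *Atg7*-KO mice 24.7% up and 26.2% down. Marker counts near these shares are no result about a cell type. Against cont, 5 of 6 hepatocyte markers were called lower in *Atg7*-KO and 1 in knock-in mice. Their summed level was 71000 to 130000 CPM in cont, 35900 to 38100 in *Atg7*-KO and 109000 to 125000 in knock-in mice. The 5 cholangiocyte markers summed to 33.4 to 51.2, 823 to 1020 and 180 to 265 CPM in the same order, with 4 called higher in *Atg7*-KO and 3 in knock-in mice, both against cont. *Spp1* alone was at 24.4 to 43.03, 771.4 to 966.9 and 134.5 to 226.9 CPM, so these sums mostly show this gene. In knock-in against *Atg7*-KO mice *Krt19*, *Epcam* and *Spp1* were called lower. *Krt7* was not called, nor was *Sox9*, with means of 25.75 CPM in *Atg7*-KO and 30.76 in knock-in mice. The 6 macrophage markers summed to 265 to 370, 1020 to 1080 and 175 to 343 CPM, with 5 higher in *Atg7*-KO and 0 called in knock-in mice. The 6 stellate cell markers summed to 106 to 120, 533 to 723 and 131 to 220 CPM, with 4 and 1 higher. Of 5 lymphocyte markers 3 and 1 were higher, at sums of 3.21 to 8.13, 12.1 to 17 and 5.74 to 8.93 CPM. Of 5 endothelial markers 2 were higher and 1 lower in *Atg7*-KO and 3 were lower in knock-in mice, at sums of 220 to 294, 215 to 225 and 123 to 153 CPM. The 4 markers of exocrine pancreas summed to at most 4.87 CPM in any mouse. In whole liver, more cells of a type and more RNA per cell cannot be told apart, and the part of the cell makeup in the changes below was not tested.

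The *Atg7*-KO mice had more RNA of all 9 genes than the cont mice, from 2.05-fold for *Akr1b8* to 285-fold for *Cbr3* as ratios of group means. In each of the 9, the lowest *Atg7*-KO mouse stood above the highest cont mouse, as was so for 29.2% of all tested genes, while 26.3% lay below without overlap. A gene was called changed at a false discovery rate under 0.05 over all genes tested and a fold change over 1.5, and 9 of 9 were called higher, where 21.6% of all tested genes were called higher and 22.1% lower. The median log2 fold change of the 9 was 2.67, beside -0.032 for all genes tested. Nothing about the group follows from this count, since the contrast was used to choose it.

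In knock-in mice all 9 were lower than in *Atg7*-KO mice, again with no overlap between the mice, where 36.8% of all tested genes were lower and 36.4% higher without overlap. The 9 were called lower, where 24.7% of all tested genes were called higher and 26.2% lower, and their median log2 fold change was -2.31, beside 0.0021 for all genes. Against cont, 7 of the 9 were not called in knock-in mice, *Htatip2* was called higher and *Akr1b3* lower. For this contrast 6.25% of all tested genes were called higher and 5.34% lower, and the medians were 0.49 for the 9 genes and 0.0044 for all genes. The comparisons share mice, so they are not independent of each other. In the contrasts with knock-in mice, a difference in counting between genotypes cannot be told apart from one in RNA (see the genes without counts under other observations).

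**Figure D1:**
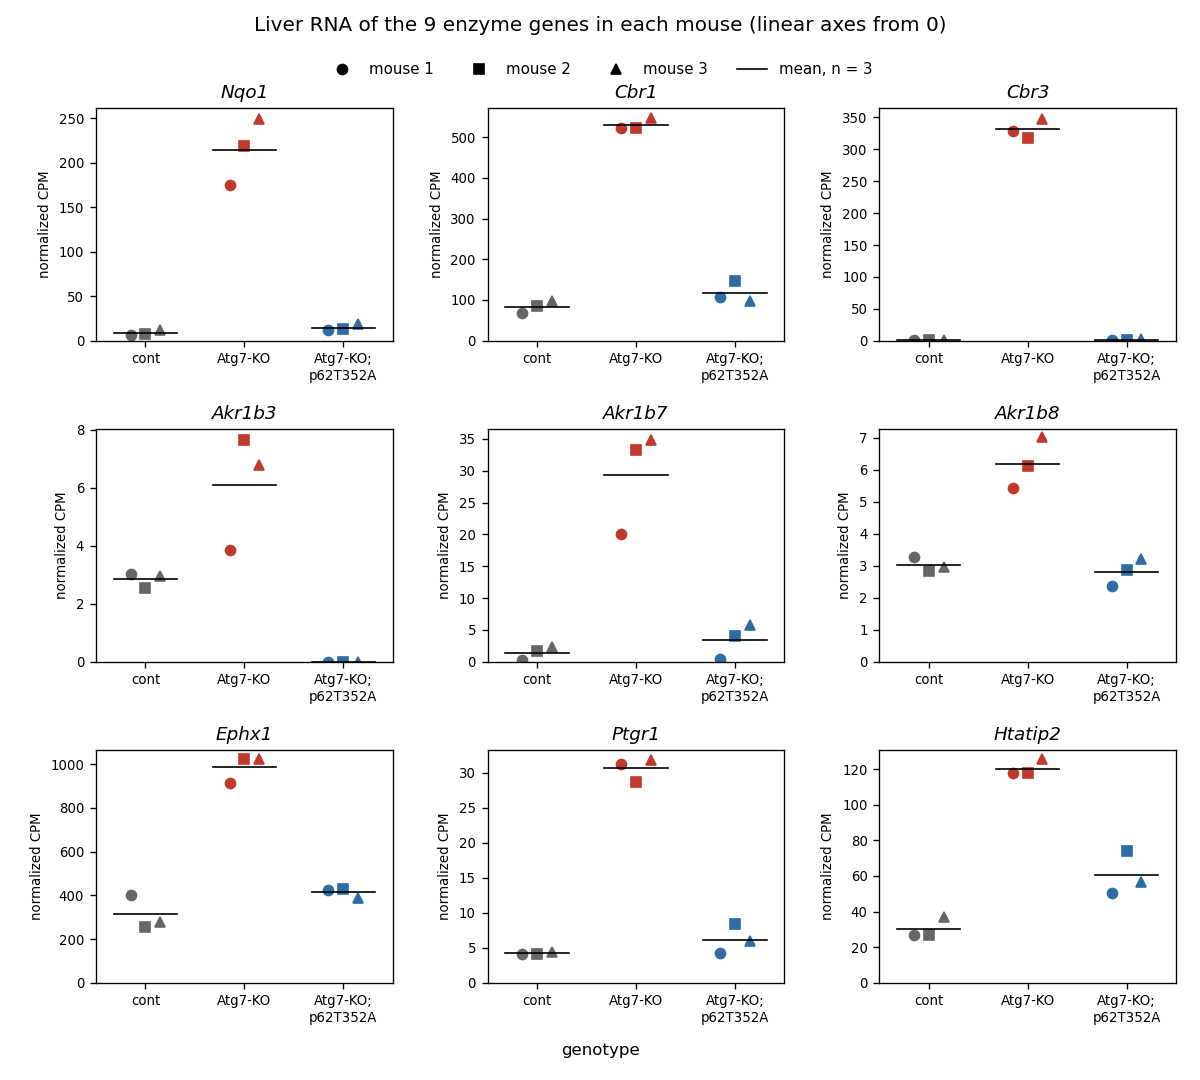
Normalized CPM (vertical axes, linear from 0) of the 9 genes in each of the 3 mice of the genotypes cont, *Atg7*-KO and *Atg7*-KO;p62T352A, with symbols for the mouse number and lines at the means. The *Atg7*-KO mice stand above all other mice in every panel, and *Htatip2* is the gene whose knock-in mice lie clearly between the other genotypes.

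*Nqo1* encodes NAD(P)H quinone dehydrogenase 1, which reduces quinones directly to hydroquinones (chromosome 8 from 107388225 to 107403206, minus strand, GENCODE GRCm38). It had 6.36, 7.28 and 12.2 CPM in cont, 175, 219 and 249 in *Atg7*-KO and 11.7, 13.2 and 18.4 in knock-in mice. The *Atg7*-KO mice lay far above both other genotypes, whose ranges overlapped. The fitted log2 fold change was 4.65 in *Atg7*-KO against cont (standard error 0.32) and -3.89 in knock-in against *Atg7*-KO mice (standard error 0.31). Against cont it was 0.75 in knock-in mice (standard error 0.28), which was not called with all mice and was called, at 1.08, without cont mouse 3, the highest of the cont mice. Of the rise from the cont mean to the *Atg7*-KO mean, 2.82% ± 1.71 (SD, n = 3) was left in knock-in mice. Here and below, the SD of such a percent is over the 3 knock-in mice only. It takes the cont and *Atg7*-KO means as fixed and leaves out the spread of those mice.

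*Cbr1* and *Cbr3* are neighbours on chromosome 16, on the plus strand from 93605853 to 93610505 and from 93683215 to 93690990. CBR1, a carbonyl reductase of the short-chain dehydrogenase family, reduces quinones, prostaglandins and lipid aldehydes, and CBR3 is its close relative. *Cbr1* had 67.2, 86.1 and 96.4 CPM in cont, 521, 521 and 547 in *Atg7*-KO and 107, 146 and 98.4 in knock-in mice. It was thus already well expressed in cont livers, and the lowest knock-in mouse stood just above the highest cont mouse. The log2 fold changes were 2.67 (standard error 0.22) in *Atg7*-KO and 0.49 (standard error 0.21, not called) in knock-in mice, both against cont. Knock-in mice kept 7.59% ± 5.77 (SD, n = 3) of the rise.

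*Cbr3* was nearly silent in cont livers, with 19, 16 and 8 counts, and had 6794, 7727 and 8146 counts in *Atg7*-KO and 12, 11 and 29 in knock-in mice. In CPM these were 1.09, 1.51 and 0.879, then 329, 317 and 347, then 0.857, 0.770 and 1.89. This was the largest fold of the 9 genes, and the cont and knock-in ranges overlapped. The log2 fold change was 8.15 (standard error 0.38) in *Atg7*-KO against cont, -8.12 (standard error 0.38) in knock-in against *Atg7*-KO mice and 0.024 (standard error 0.36) in knock-in against cont mice. The sign of the last value turned in 6 of the alternative fits, none of which called it. Of the rise, 0.00398% ± 0.189 (SD, n = 3) was left. The neighbouring reductases thus differed by 285-fold against 6.37-fold in *Atg7*-KO mice, and neither shares a 75-base stretch, the length of a read, with another gene of the annotation.

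The aldo-keto reductases *Akr1b3*, *Akr1b8* and *Akr1b7* lie in one stretch of chromosome 6, from 34302434 to 34317478 on the minus strand, from 34354119 to 34368463 on the plus strand and from 34412334 to 34423142 on the plus strand. AKR1B3 is aldose reductase, which turns glucose into sorbitol and also reduces lipid aldehydes. AKR1B7 and AKR1B8 are related aldehyde reductases, of which AKR1B7 is best known from the adrenal cortex and the vas deferens.

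*Akr1b7* had 0.229, 1.70 and 2.31 CPM in cont, 20.1, 33.3 and 34.8 in *Atg7*-KO and 0.500, 3.99 and 5.81 in knock-in mice. The mouse numbered 1 was the lowest in every genotype, at 0.114, 0.589 and 0.102 times the mean of the other two. These mice also had 7 to 27.7 counts of *Xist*, the X-inactivation transcript, where the other 6 had 8578 to 18335, and 962 to 1190 counts of the Y-linked *Ddx3y*, where the others had 9 to 250. The labels give no sex, and the part of this difference in the *Akr1b7* values was not tested. The log2 fold change was 4.49 (standard error 0.83) in *Atg7*-KO against cont mice and -3.09 (standard error 0.74) in knock-in against *Atg7*-KO mice. In knock-in against cont mice it was 1.40 (standard error 0.83), which was not called. Without the 3 mice numbered 1 this last value was 1.30 with a standard error of 0.28 and was called. The 5 adrenal markers summed to 5.16 to 18.9 CPM in cont, 7.59 to 10.8 in *Atg7*-KO and 7.85 to 25 in knock-in mice. *Cyp11b1* and *Mc2r* had no count in any mouse and *Cyp11a1* at most 1. *Cyp21a1* had 60 to 137 counts in cont, 136 to 208 in *Atg7*-KO and 71 to 300 in knock-in mice. *Star* had 30 to 62, 21 to 47 and 41 to 50 in the same order. Whether adrenal RNA had a part in the *Akr1b7* values was not tested. An antisense gene, *Gm13857*, overlaps the exons of *Akr1b7* and holds 5.3% of its 75-base stretches. The strand setting of the counting is not given in the sources used here, so that reads of both cannot be told apart. In *Atg7*-KO mouse 3 the count of *Akr1b7* was fractional (815.8), as taken up with *Akr1b8* below.

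*Akr1b8* had 3.27, 2.84 and 2.97 CPM in cont, 5.42, 6.12 and 7.04 in *Atg7*-KO and 2.36, 2.87 and 3.20 in knock-in mice. Its rise was the smallest, with a log2 fold change of 1.03 (standard error 0.22), and the knock-in mice lay within and below the cont range at -0.11 (standard error 0.23). Its row and that of the related *Akr1b10* both had fractional counts in *Atg7*-KO mice 2 and 3 and in knock-in mouse 2. In *Atg7*-KO mouse 3 the sum of both rows, 387.21, was not whole, and with the row of *Akr1b7* (815.8) it came to 1203.01. The sums over both rows below leave out reads shared with *Akr1b7*. Summed over both rows, the mean level in cont mice was 5.65 ± 1.23 CPM (SD, n = 3), beside 14.4 ± 2.3 in *Atg7*-KO and 5.90 ± 1.36 in knock-in mice. With the rows summed, the log2 fold change of knock-in against cont mice was 0.075, of the opposite sign, and it was called in neither form.

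The row of *Akr1b3* had 53.1, 26.6 and 26.6 expected counts in cont, 79.7, 186 and 159 in *Atg7*-KO and 0, 0 and 0 in knock-in mice. In CPM these were 3.04, 2.55 and 2.97, then 3.87, 7.64 and 6.78, then 0 in each mouse. With a floor of 3 counts per mouse in place of 0, the row in knock-in mice stood 13.8-fold below cont and 29.5-fold below *Atg7*-KO mice. These values hold for the row and set no bound on *Akr1b3* RNA, since reads that fit several genes are divided by estimation (next paragraph). The values above 0 were close to whole multiples of 26.6 counts, namely 2, 1 and 1 in cont and 3, 7 and 6 in *Atg7*-KO mice. The log2 fold change of *Atg7*-KO against cont was 1.09 (standard error 0.32), and the call was lost without *Atg7*-KO mouse 2 (0.90) or 3 (1.01) and without cont mouse 2 (0.94) or 3 (1.11).

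A second row holds the missing fractions. *Gm6644* is a processed pseudogene on chromosome 1 from 55444074 to 55445024 (minus strand) that RefSeq also lists as Akr1b3p. Of its 75-base stretches 74.3% occur in transcripts of *Akr1b3*, and 49.7% of those of the longest coding *Akr1b3* transcript occur in *Gm6644*. It had 104, 27.4 and 36.4 expected counts in cont, 698, 942 and 949 in *Atg7*-KO and 134, 224 and 197 in knock-in mice. Added to those of *Akr1b3*, its counts came to whole numbers in all 9 mice within 0.03: 157, 54 and 63 in cont, 778, 1128 and 1108 in *Atg7*-KO and 134, 224 and 197 in knock-in mice. No other row of the table completed the fractions of *Akr1b3* in this way. *Gm38056*, which overlaps *Gm6644* on the opposite strand, holds 100% of the stretches of *Gm6644*. It also holds 11.2% of those of all *Akr1b3* transcripts. As the strand setting is not given, reads of *Gm38056* and *Gm6644* cannot be told apart here.

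The division between both rows differed by genotype. The row of *Akr1b3* received 33.8%, 49.2% and 42.2% of the sum in cont, 10.2%, 16.5% and 14.4% in *Atg7*-KO and 0% in each knock-in mouse. The sum itself came to 7.01 ± 1.95 CPM in cont mice (SD, n = 3), 43.8 ± 5.32 in *Atg7*-KO and 12.7 ± 3.06 in knock-in mice, a 6.24-fold rise of which 15.5% ± 8.34 was left. With *Gm6644* added to *Akr1b3*, a fit chosen after seeing the data, the log2 fold change of knock-in against cont mice turned from -8.57 to 0.85 (standard error 0.25) and was not called. The table thus gives an *Akr1b3* level of 0 in knock-in mice, while the row of its pseudogene held 134 to 224 counts in these mice. From which of the loci the reads came was not tested.

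**Figure D2:**
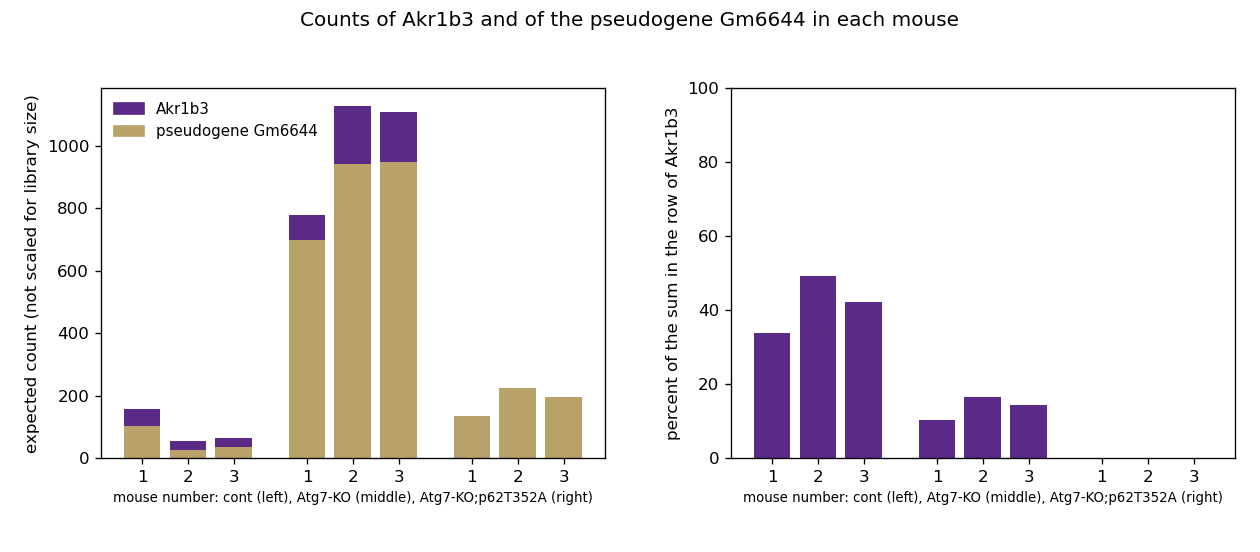
Expected counts of *Akr1b3* and of its pseudogene *Gm6644* stacked for each mouse (left), and the percent of their sum that stands in the row of *Akr1b3* (right), with mice 1 to 3 of cont, *Atg7*-KO and *Atg7*-KO;p62T352A from left to right. The knock-in mice have sums of 134, 224 and 197 counts, above the 54 and 63 of cont mice 2 and 3, with 0% in the row of *Akr1b3*.

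*Ephx1* encodes microsomal epoxide hydrolase, which opens epoxides of drugs and of polycyclic hydrocarbons (chromosome 1 from 180976210 to 181020904, minus strand). It had 403, 255 and 280 CPM in cont, 912, 1022 and 1026 in *Atg7*-KO and 424, 429 and 390 in knock-in mice. Cont mouse 1 stood apart from the other cont mice and within the knock-in range. The log2 fold change was 1.66 (standard error 0.21) in *Atg7*-KO and 0.40 (standard error 0.21) in knock-in against cont mice. The second value was not called with all mice and was called, at 0.63, without cont mouse 1. Knock-in mice kept 15% ± 3.13 (SD, n = 3) of the rise. Exons of *Gm36961* overlap it on the same strand and hold 0.373% of its 75-base stretches.

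*Ptgr1* encodes prostaglandin reductase 1, which inactivates leukotriene B4 and reduces unsaturated aldehydes and ketones (chromosome 4 from 58965439 to 58987119, minus strand). It had 4.18, 4.07 and 4.40 CPM in cont, 31.3, 28.8 and 31.9 in *Atg7*-KO and 4.21, 8.34 and 5.94 in knock-in mice. The cont and *Atg7*-KO mice were each close together, and the knock-in mice spread from the cont level upwards. The log2 fold change was 2.86 (standard error 0.24) in *Atg7*-KO and 0.55 (standard error 0.24, not called) in knock-in against cont mice, and 7.37% ± 7.83 (SD, n = 3) of the rise was left.

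*Htatip2* encodes TIP30, an oxidoreductase of the short-chain dehydrogenase fold that is also described as a tumour suppressor (chromosome 7 from 49759115 to 49773975, plus strand). It had 27.1, 26.8 and 37.2 CPM in cont, 118, 118 and 126 in *Atg7*-KO and 50.2, 74.1 and 56.7 in knock-in mice. No mouse of one genotype reached the range of another. The log2 fold change was 1.99 (standard error 0.21) in *Atg7*-KO against cont, -1.00 (standard error 0.20) in knock-in against *Atg7*-KO and 0.99 (standard error 0.20) in knock-in against cont mice. The last call was lost without knock-in mouse 3 (1.04) and without cont mouse 2 (0.85). Of the rise, 33.3% ± 13.7 (SD, n = 3) was left, more than for any other of the genes by their means.

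**Figure D3:**
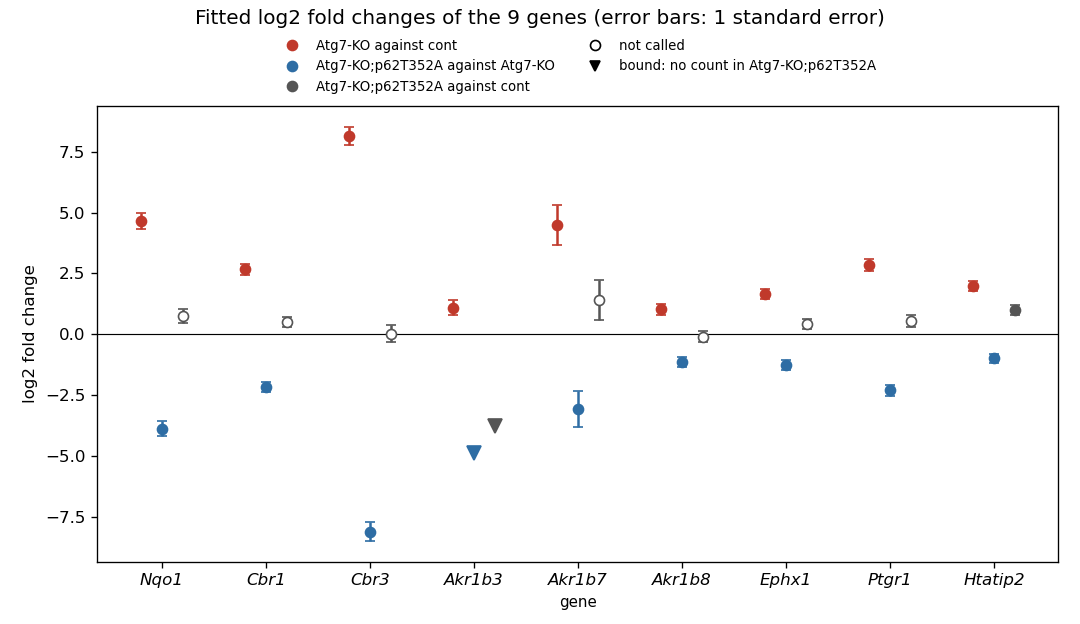
Fitted log2 fold changes (vertical axis) of the 9 genes in the 3 contrasts, with error bars of 1 standard error and open symbols for values that were not called. Triangles for *Akr1b3*, marked as bounds, show its row with a floor of 3 counts in place of 0 and set no bound on its RNA. *Htatip2* has the only filled symbol above 0 for *Atg7*-KO;p62T352A against cont.

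With *Akr1b3* taken as its sum with *Gm6644*, the level left in knock-in mice ran across the genes from -6.77% ± 13.4 of the rise for *Akr1b8* to 33.3% ± 13.7 for *Htatip2*. The row of *Akr1b3* alone, with no count in knock-in mice, stood at -87.9%. A percent of the rise is small for genes with large folds. As ratios to the cont mean, knock-in levels were 0.929 for *Akr1b8*, 1.01 for *Cbr3*, 1.32 for *Ephx1*, 1.41 for *Cbr1* and 1.46 for *Ptgr1*. They were 1.68 for *Nqo1*, 1.81 for the sum of *Akr1b3* and *Gm6644*, 1.99 for *Htatip2* and 2.43 for *Akr1b7*. By these means *Nqo1*, at 2.82% of its rise, stood further above cont than *Ephx1*, at 15%. Neither was called against cont with all mice, and their cont and knock-in ranges overlapped, so no order can be read between them. For *Akr1b7*, *Ptgr1* and *Cbr1* the values of the 3 mice were spread widely beside their means, so that no order can be read among these.

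**Figure D4:**
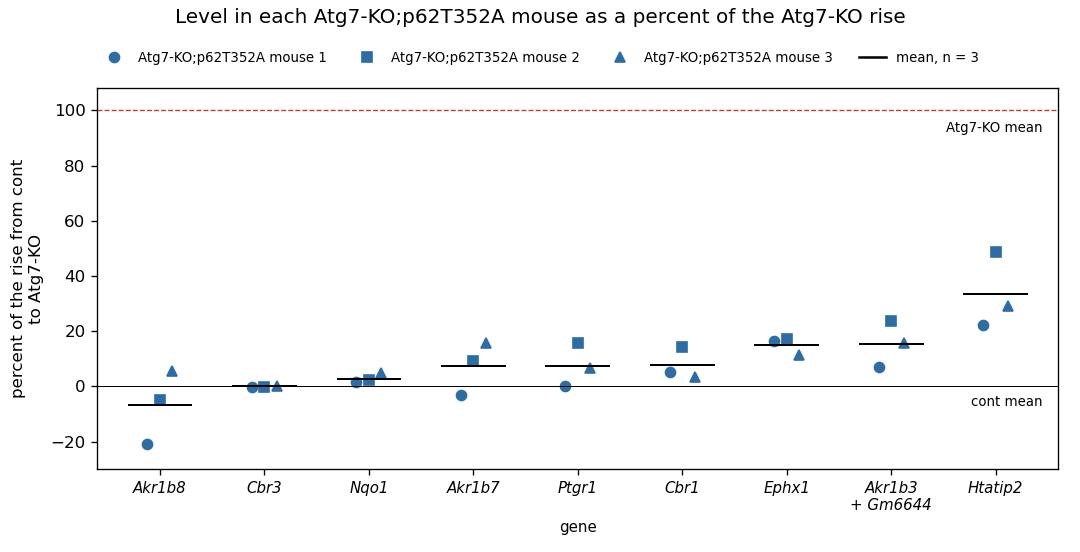
Level in each of the 3 *Atg7*-KO;p62T352A mice as a percent of the rise from the cont mean (0) to the *Atg7*-KO mean (100), with lines at the means. Means run from -6.77% for *Akr1b8* to 33.3% for *Htatip2*, and *Akr1b3* is shown as the sum with *Gm6644*, at 15.5%.

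Levels of different genes were compared only per kilobase of the longest coding transcript. In *Atg7*-KO mice the order by CPM per kilobase (mean ± SD, n = 3) was *Ephx1* (567 ± 37.1), *Cbr1* (429 ± 12.2), *Cbr3* (283 ± 13), *Nqo1* (138 ± 24), *Htatip2* (84.8 ± 3.28), *Akr1b7* (22.9 ± 6.33), *Ptgr1* (13.4 ± 0.723), *Akr1b8* (4.56 ± 0.599) and the row of *Akr1b3* (4.40 ± 1.43). Only the last pair overlapped in their ranges. In cont mice *Ephx1* (180 ± 45.6), *Cbr1* (67.3 ± 12), *Htatip2* (21.4 ± 4.16) and *Nqo1* (5.55 ± 2.02) came first, and the other 5, between 0.992 for *Cbr3* and 2.23 for *Akr1b8*, overlapped with their neighbours in the order. *Cbr3* thus went from the last place in cont livers to the third in *Atg7*-KO livers. In knock-in mice the first 4 were again *Ephx1* (238 ± 12.1), *Cbr1* (94.7 ± 20.9), *Htatip2* (42.5 ± 8.75) and *Nqo1* (9.29 ± 2.27).

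The genes most like *Nqo1* over the 9 mice, by Pearson's correlation of log2 CPM, were *Panx1* (0.9964), *Src* (0.9963), *H2-Eb1* (0.9952), *Ctps2* (0.9945) and *Abr* (0.9944). All 9 points share the 3 genotypes, so the values describe the pattern and carry no p. The other enzymes came after these, with *Cbr1* at 0.983, *Ptgr1* at 0.978, *Cbr3* at 0.975, *Ephx1* at 0.944, *Akr1b8* at 0.943, *Htatip2* at 0.92, *Akr1b7* at 0.914 and the row of *Akr1b3* at 0.510. *Cbr1*, the highest of them, was at rank 89 of all tested genes.

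Related reductases did not share one direction. Genes named from each list were picked by their fold change in *Atg7*-KO against cont mice. Their adjusted p-values are a description and no independent tests. Of 14 tested genes among 17 other aldo-keto reductases, *Atg7*-KO mice had 7 called higher and 0 lower against cont. Knock-in mice had 0 higher and 9 lower against *Atg7*-KO mice, and 1 higher and 2 lower against cont. Without cont mouse 2 the first count was 4. The shares of all tested genes, higher and lower, were 21.6% and 22.1%, 24.7% and 26.2%, and 6.25% and 5.34% in these contrasts. *Akr1c18*, a hydroxysteroid dehydrogenase of progesterone, had at most 4 counts in a cont mouse and 172 to 415 in *Atg7*-KO mice. Its log2 fold change was 6.59 (standard error 0.77, edgeR adjusted p = 0.0002). In knock-in mice it stayed above cont, by 4.27 (standard error 0.82, edgeR adjusted p = 0.0134), a call lost without knock-in mouse 3 (4.09, adjusted p = 0.0519). *Kcnab1*, a subunit of potassium channels with the aldo-keto reductase fold, rose by 2.73 in *Atg7*-KO (standard error 0.42, edgeR adjusted p = 0.000809) from at most 4 counts in cont mice.

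Of 20 tested genes among 21 other quinone, carbonyl and alkenal reductases, *Atg7*-KO mice had 3 higher and 9 lower than cont mice, with a median log2 fold change of -0.38. In knock-in against *Atg7*-KO mice 6 were higher and 4 lower, and in knock-in against cont mice 1 was higher and 0 lower. The shares of all tested genes, higher and lower, were 21.6% and 22.1%, 24.7% and 26.2%, and 6.25% and 5.34% in these contrasts. *Dcxr*, which reduces dicarbonyls and xylulose, fell by 2.15 on the log2 scale in *Atg7*-KO (standard error 0.33, edgeR adjusted p = 0.000867), from 155 ± 79.5 to 34.9 ± 2.34 CPM (SD, n = 3). *Vat1*, a protein of the quinone oxidoreductase family, rose by 2.08 (standard error 0.25, edgeR adjusted p = 0.000247), from 20.4 ± 7.85 to 86.7 ± 4.16 CPM. Of 4 other epoxide hydrolases, 2 could be tested. *Ephx2*, the soluble epoxide hydrolase, changed opposite to *Ephx1* and fell by 1.01 in *Atg7*-KO (standard error 0.25, edgeR adjusted p = 0.00926), and *Lta4h* was at 0.18 (standard error 0.21, adjusted p = 0.497). In knock-in against *Atg7*-KO mice 1 of the 2 was higher and 0 lower, and this call of *Ephx2* (0.86) was lost without *Atg7*-KO mouse 2 or 3 or knock-in mouse 1 (0.79 to 0.84). In knock-in against cont mice 0 were called.

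Of 15 other NRF2 targets, 14 were called higher in *Atg7*-KO against cont (0 lower), 15 lower in knock-in against *Atg7*-KO (0 higher) and 0 in either direction in knock-in against cont mice. Their median log2 fold changes were 2.02, -2.12 and -0.024. This list, too, was made with earlier results of these mice known. The shares of all tested genes, higher and lower, were 21.6% and 22.1%, 24.7% and 26.2%, and 6.25% and 5.34% in these contrasts. *Slc7a11*, the cystine importer that feeds glutathione synthesis, went from 2 to 11 counts in cont to 4419 to 7033 counts in *Atg7*-KO mice and rose by 9.19 on the log2 scale (standard error 0.60, edgeR adjusted p = 1.4e-05). *Abcc4*, an export pump for conjugates, rose by 5.75 (standard error 0.30, edgeR adjusted p = 7e-06), from 4.27 ± 1.09 to 229 ± 4.21 CPM (SD, n = 3), and stood at 3.06 ± 1.08 CPM in knock-in mice.

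Of 8 genes for NRF2 and its regulators, 1 was called higher and 1 lower in *Atg7*-KO against cont mice. In knock-in against *Atg7*-KO mice 1 was higher and 2 lower, and in knock-in against cont mice 0 were called. The shares of all tested genes, higher and lower, were 21.6% and 22.1%, 24.7% and 26.2%, and 6.25% and 5.34% in these contrasts. Counts near these shares are no result about the listed genes. The transcripts of *Nfe2l2* (-0.60, standard error 0.43) and *Keap1* (-0.033, standard error 0.15) were not called in *Atg7*-KO against cont mice (edgeR adjusted p = 0.283 and 0.877). They are named beside the rule as the genes of NRF2 and KEAP1. *Sqstm1*, the gene of p62, rose by 1.24 (standard error 0.22, edgeR adjusted p = 0.00189), from 387 ± 103 to 914 ± 44.2 CPM (SD, n = 3), and stood at 545 ± 71.1 CPM in knock-in mice. Its call in knock-in against *Atg7*-KO mice (-0.75) was lost without *Atg7*-KO mouse 1 or 3 or knock-in mouse 1 or 3 (-0.68 to -0.75), and without cont mouse 1 it was called in knock-in against cont mice (0.73). *Mafg*, a small MAF partner of NRF2, fell by 1.61 (standard error 0.45, edgeR adjusted p = 0.0163), a call that was lost without *Atg7*-KO mouse 1 (-1.58) or 3 (-1.55) or without cont mouse 3 (-1.21).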

How the data were processed

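Per the labels and the study's methods, poly(A) RNA of liver was sequenced as 75-base single-end reads, and the submitters' processing notes name Trim Galore, STAR, RSEM and mm10. The labels name a column kit for RNA extraction and the methods TRIzol. The table the authors deposited holds RSEM expected counts per gene and mouse, not scaled for library size. Annotation, versions and strand setting are not given in the sources used here. RSEM divides reads that fit several genes, so rows of near-identical genes depend on each other.

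Expected counts were rounded and fitted in R 4.3.3 with edgeR 4.0.16 (filterByExpr, TMM, glmQLFit and glmQLFTest, 1 model of 3 genotypes). Standard errors come from the F statistic. Adjusted p-values are Benjamini-Hochberg values over all 13922 genes tested. Genes were called at a false discovery rate under 0.05 and a fold change over 1.5. Positions and shared 75-base stretches come from GENCODE vM21, promoters from RefSeq. The labels describe separate mice, and the p-values measure the spread between them.

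The genes and lists were chosen with earlier results of these data known. Adjusted p-values printed for genes of the lists are therefore a description and no independent tests. Named genes are the 9 enzymes, *Atg7*, the 2 genes of each list with the largest absolute log2 fold change in *Atg7*-KO against cont, the 5 most like *Nqo1* (log2 CPM, prior count 2), and the 5 genes of highest mean CPM with no count in knock-in mice but at least 1 CPM in both other genotypes, with the 4 of the mirror set.

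Mice share the numbers 1, 2 and 3 across genotypes. Deviations of same-numbered mice correlated by 0.223, -0.0303 and 0.247 on average, and not every pair passed 0.1, so the numbers were not taken as pairs. Alternatives were DESeq2 1.42.0, its size factors in edgeR, upper-quartile scaling, no filter, a block of mouse numbers, the mice numbered 1 left out, each mouse left out, and the false discovery rate alone. The sums with *Gm6644* and *Akr1b10* were added after seeing the data. The steps were run on simulated counts in which few genes were changed, in both directions, at a fixed spread. Such a run cannot show how the scaling does where many genes change, as here.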

Additional observations from a re-analysis of the deposited data

How the results depend on the processing

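Of the fold changes of the 9 enzymes, those of *Atg7*-KO against cont and of knock-in against *Atg7*-KO mice kept their sign under every alternative run. Against cont, the sign in knock-in mice turned for 3 genes, of which only *Akr1b3* was called with all mice and the rows as deposited: for *Akr1b3* with *Gm6644* added (0.85), for *Akr1b8* with *Akr1b10* added (0.075), with the mice numbered 1 left out (0.068) and without knock-in mouse 1 (0.001; range with 1 mouse left out -0.227 to 0.001), and for *Cbr3* with DESeq2 (-0.029), with its size factors (-0.031), without cont mouse 1 (-0.031) or 3 (-0.111) and without knock-in mouse 3 (-0.51), within a range of -0.51 to 0.25 with 1 mouse left out. The mouse numbers were not taken as pairs, since pairs numbered 2 correlated by -0.202 to 0.0926, although those numbered 1, which share low *Xist* counts, reached 0.137 to 0.271 and those numbered 3 0.181 to 0.321. With the replicate block *Cbr3* was at -0.034 and *Akr1b3* in *Atg7*-KO against cont, at 1.03, was no longer called, while the block changed no other call of the 9 enzymes. The number of enzymes called in knock-in against cont mice, 2, was 1 with *Gm6644* added and 1 to 3 with 1 mouse left out, with 1 (*Akr1b3*) without knock-in mouse 3 or cont mouse 2. It was 8 to 9 in *Atg7*-KO against cont and 9 in knock-in against *Atg7*-KO mice. Counts of list genes called in *Atg7*-KO against cont ranged, with 1 mouse left out, from 1 to 3 for the NRF2 regulators, with 1 without *Atg7*-KO mouse 1 or 3, from 4 to 9 for the other aldo-keto reductases, with 4 without cont mouse 2, and from 1 to 3 for the polyol and fructose genes, with 1 without *Atg7*-KO mouse 2 or 3 and 1 with upper-quartile scaling. That scaling moved the median of all genes to 0.082 in *Atg7*-KO against cont and to -0.135 in knock-in against *Atg7*-KO mice. The cause of these changes was not tested. The row Akr1b1 planned as another name of *Akr1b3* could not be used, since the table lists that gene as *Akr1b3* only. With 8 to 19 counts of *Cbr3* in a cont mouse, small differences between cont and knock-in mice were not detectable at this depth.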

Other observations

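Further groups of liver enzymes were counted by the same rule. In *Atg7*-KO against cont mice 21.6% of all tested genes were called higher and 22.1% lower. The shares were 24.7% and 26.2% in knock-in against *Atg7*-KO mice and 6.25% and 5.34% in knock-in against cont mice. With 4 or 5 tested genes in a list, counts near these shares are no result about the listed genes. Of 4 tested targets of the aryl hydrocarbon receptor, a receptor for planar aromatic compounds, *Atg7*-KO mice had 3 called higher and 0 lower against cont, with 3 lower and 0 higher in knock-in against *Atg7*-KO, and 0 in knock-in against cont mice. *Cyp1b1* rose by 2.68 on the log2 scale (standard error 0.43, edgeR adjusted p = 0.000992), from 1.06 ± 0.105 to 6.91 ± 0.15 CPM (SD, n = 3), and *Cyp1a1* by 1.72 (standard error 0.27, edgeR adjusted p = 0.000844). *Cyp1a2*, at 972 ± 270 CPM in cont and 1219 ± 122 in *Atg7*-KO mice, was not called (0.33, standard error 0.22, edgeR adjusted p = 0.254). It is named beside the rule as the tested target without a call. Of 5 targets of the drug receptors CAR and PXR, 3 were called lower and 0 higher in *Atg7*-KO against cont mice, 2 were higher and 1 lower in knock-in against *Atg7*-KO, and 1 was lower in knock-in against cont mice. *Cyp2b10* fell by 3.75 (standard error 0.66, edgeR adjusted p = 0.00168). Its call in knock-in against *Atg7*-KO mice (2.21) was lost without *Atg7*-KO mouse 3 (1.99) or knock-in mouse 2 (1.82). Against cont it was not called in knock-in mice (-1.54), but was with DESeq2 (-1.58), without cont mouse 1 (-1.95) and without the mice numbered 1 (-1.58). *Cyp2c29* fell by 2.68 (standard error 0.51, edgeR adjusted p = 0.00238) and was also lower in knock-in than in cont mice, at -2.50 (standard error 0.50, edgeR adjusted p = 0.0161), a call that was lost without knock-in mouse 1 (-2.26) or 3 (-2.35). Of 5 genes of sorbitol and fructose metabolism, which lies downstream of aldose reductase, 2 were called lower and 0 higher in *Atg7*-KO against cont mice, 3 were higher and 0 lower in knock-in against *Atg7*-KO, and 1 was higher in knock-in against cont mice. *Glyctk*, glycerate kinase, fell by 0.75 (standard error 0.18, edgeR adjusted p = 0.00846), and *Khk*, ketohexokinase, by 0.68 (standard error 0.21, edgeR adjusted p = 0.0233), a call lost without *Atg7*-KO mouse 2 or 3 (-0.62).

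*Akr1b3* was one of 9 genes with no count in any knock-in mouse and a mean of at least 1 CPM in both other genotypes. Those of highest mean were *Oaz1-ps* (116 CPM in cont and 145 in *Atg7*-KO mice), *Gm12669* (27.5 and 54.9), *H2-Q8* (5.89 and 18.8), *Tmem254c* (5.69 and 10.2) and *Gm10052* (1.21 and 11.6). Of the 75-base stretches of *Oaz1-ps* 85.4% occur in other genes, and of *Gm12669* 66%. For *Tmem254c* and *Gm10052* the share is 100%, and *H2-Q8* has no transcript in the annotation used. The mirror set, with no count in any cont or *Atg7*-KO mouse and a mean of at least 1 CPM in knock-in mice, held 4 genes: *Mup11* (249 CPM), *Amd1* (32.8), *Gm11715* (3.51) and *Gm8989* (1.88), which share between 58.8% and 73.7% of their stretches with other genes. Both sets thus follow the knock-in genotype, in opposite directions. A difference in counting between the genotypes and a difference in RNA cannot be told apart here. The part of the former in the contrasts with knock-in mice was not tested. *Akr1b3* shares 12.1% over all its transcripts, among them long ones with retained introns, and 80.2% over its longest coding transcript.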
